A study of Mus musculus with 12 samples.

Results

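Expanded B cells and plasmablasts are the 2 populations that were sorted from the same kind of culture on day 4 after stimulation of mouse B cells with lipopolysaccharide (LPS), and they differ in fate at 1 time point. The members of this comparison were the 4 day-4 libraries of the 12 in the series, 2 of expanded B cells and 2 of plasmablasts, identified by their sample titles. Naive B cells were isolated by negative selection from the spleens of male C57BL/6 mice aged 6 to 12 weeks and stimulated with 25 µg/ml LPS at low density. Expanded B cells were sorted as CD22+ CD138- and plasmablasts as CD138+ CD22-, so that both groups share strain, stimulus and time and differ in the sort. The study's methods describe the 2 libraries of each group as biological duplicates, without giving the number of mice behind each. Other libraries of the series, from naive B cells and from undivided cells 3, 10 and 33 h after LPS, were used to estimate the spread and are described only where they place a day-4 value.

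Plasmablasts are dividing antibody-secreting cells. When an activated B cell takes this fate, Blimp-1 (Prdm1) and IRF4 turn down the factors that hold B-cell identity, such as PAX5, and XBP1 builds up the endoplasmic reticulum (ER) and the rest of the secretory route through which antibody leaves the cell. B cells that do not take it keep the surface receptors and the antigen presentation of their lineage, and go on dividing.

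Levels are given as RPKM, reads scaled to exon length and sequencing depth, computed from the deposited counts with library sizes scaled by TMM (trimmed mean of M values). Differences are log2 fold changes, plasmablasts minus expanded B cells, with their standard error (SE). A gene was called a differentially expressed gene (DE) when its change exceeded 1.5-fold by the glmTreat test of edgeR, at an adjusted p under 0.05. Since the values come from bulk RNA, a lower share of cells with a transcript and less of it in each cell cannot be told apart.

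The sort was recovered in the RNA. Sdc1, which encodes CD138, had 1.27 and 1.71 RPKM in expanded B cells and 47.6 and 48 RPKM in plasmablasts, a rise of 5.01 ± 0.24 (SE, n = 2 against 2; adjusted p = 1.92e-08). Cd22, the inhibitory B-cell lectin, had 101 and 96.1 RPKM in expanded B cells and 0.432 and 0.368 RPKM in plasmablasts, a change of -7.95 ± 0.19 (adjusted p = 5.23e-11). Both transcripts separated the groups without overlap. Jchain, the chain that joins IgM into polymers, went from 289.6 and 372 RPKM to 8216 and 7779 RPKM. Kynu, which encodes kynureninase of the tryptophan breakdown route, went the other way, with 9.12 and 8.35 against 0.093 and 0.0516 RPKM.

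Total counts of the 4 libraries ran from 32263933 to 41861977. Over the 500 genes that differed most in each pair of libraries, the root mean square log2 difference was 1.14 between the expanded replicates and 1.36 between the plasmablast replicates, and 3.69 to 3.86 between groups. Of the listed markers of T and NK cells, 16 of 19 could be tested and 3 were called higher and 2 lower, and their summed level was 39.9 to 43.2 CPM (counts relative to the library total) in expanded B cells and 17.8 to 19.5 CPM in plasmablasts. Ncr1 and Trbc1 had no count in any of the 4 libraries, and Cd3e had at most 1. Lck made up most of the sum, while Trac had 20 and 16 counts against 212 and 193 and Eomes 0 and 0 counts against 33 and 28, each higher in plasmablasts. For myeloid cells 17 of 19 markers were tested, 2 were called in each direction (0 higher without expanded replicate I and 1 without plasmablast replicate II), and the sums were 98.6 to 103 CPM against 42.2 to 43.9 CPM. Defining myeloid genes, among them Lyz2, Mpo, Elane, S100a8, S100a9, C1qa and Csf3r, had no count in the 4 libraries, and most of the expanded B-cell sum came from Flt3, Adgre1 and Itgam. Cd68, a macrophage marker, was among those called higher, at 8.05 and 9.41 against 16.9 and 19.9 RPKM. Erythroid and stromal markers summed to 84.4 to 87.7 CPM against 21.6 to 22.0 CPM, nearly all of it Pecam1. Their part in other results was not tested.

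Of 12750 genes tested, 3329 were DEs on day 4, or 26.1%. In plasmablasts 1776 genes were higher (13.9%) and 1553 were lower (12.2%). These percentages are the background against which each gene list below is read. Changes beyond 4-fold were seen in 524 of the higher and 487 of the lower DEs, and beyond 8-fold in 174 and 272. The median change over all tested genes was -0.046, with quartiles at -0.54 and 0.49. Plasmablast libraries had 11.1% and 11.5% of their counts on immunoglobulin constant genes and Jchain, against 2.71% and 3.31% in expanded B cells. Without TMM, by library size alone, the median of all genes moved to -0.38 and the DEs became 1181 higher and 2953 lower, so that 28.6% of the calls were rises in place of 53.3%. Fold changes below are therefore relative to the bulk of genes, and the scaling is mentioned again where it alters a list.

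**Figure D1:**
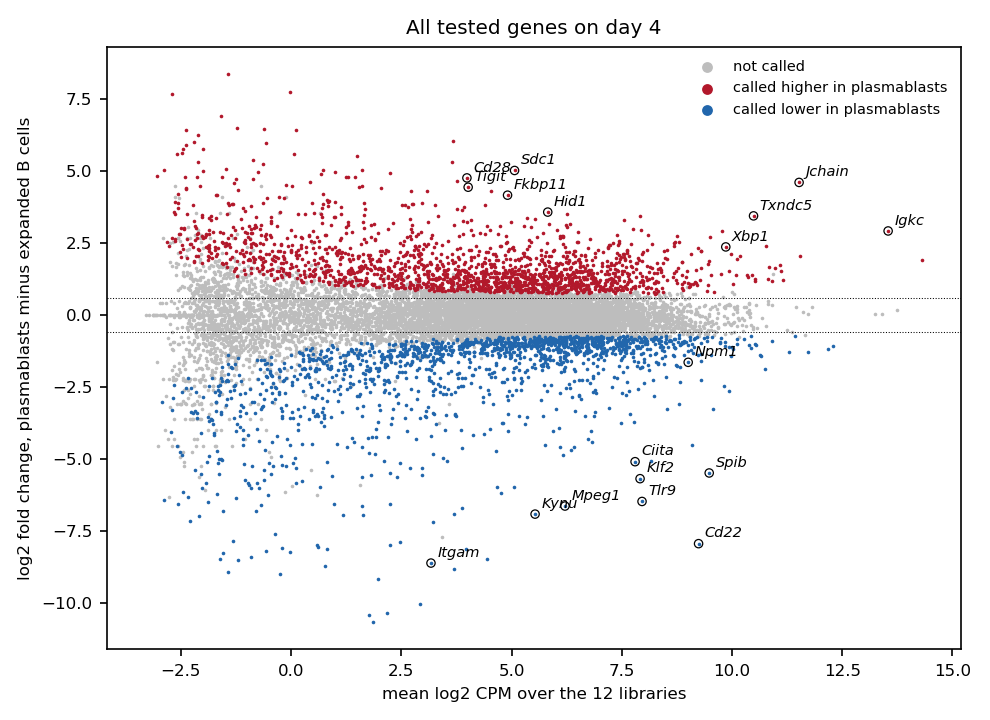
Each point is a tested gene, placed by its mean log2 CPM over the 12 libraries (x axis) and its log2 fold change from expanded B cells to plasmablasts (y axis), with dotted lines at 1.5-fold. The 1776 genes in red were called higher and those in blue lower in plasmablasts. The circled genes are named in the text, among them Cd22 at -7.95 and Sdc1 at 5.01.

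**Figure D2:**
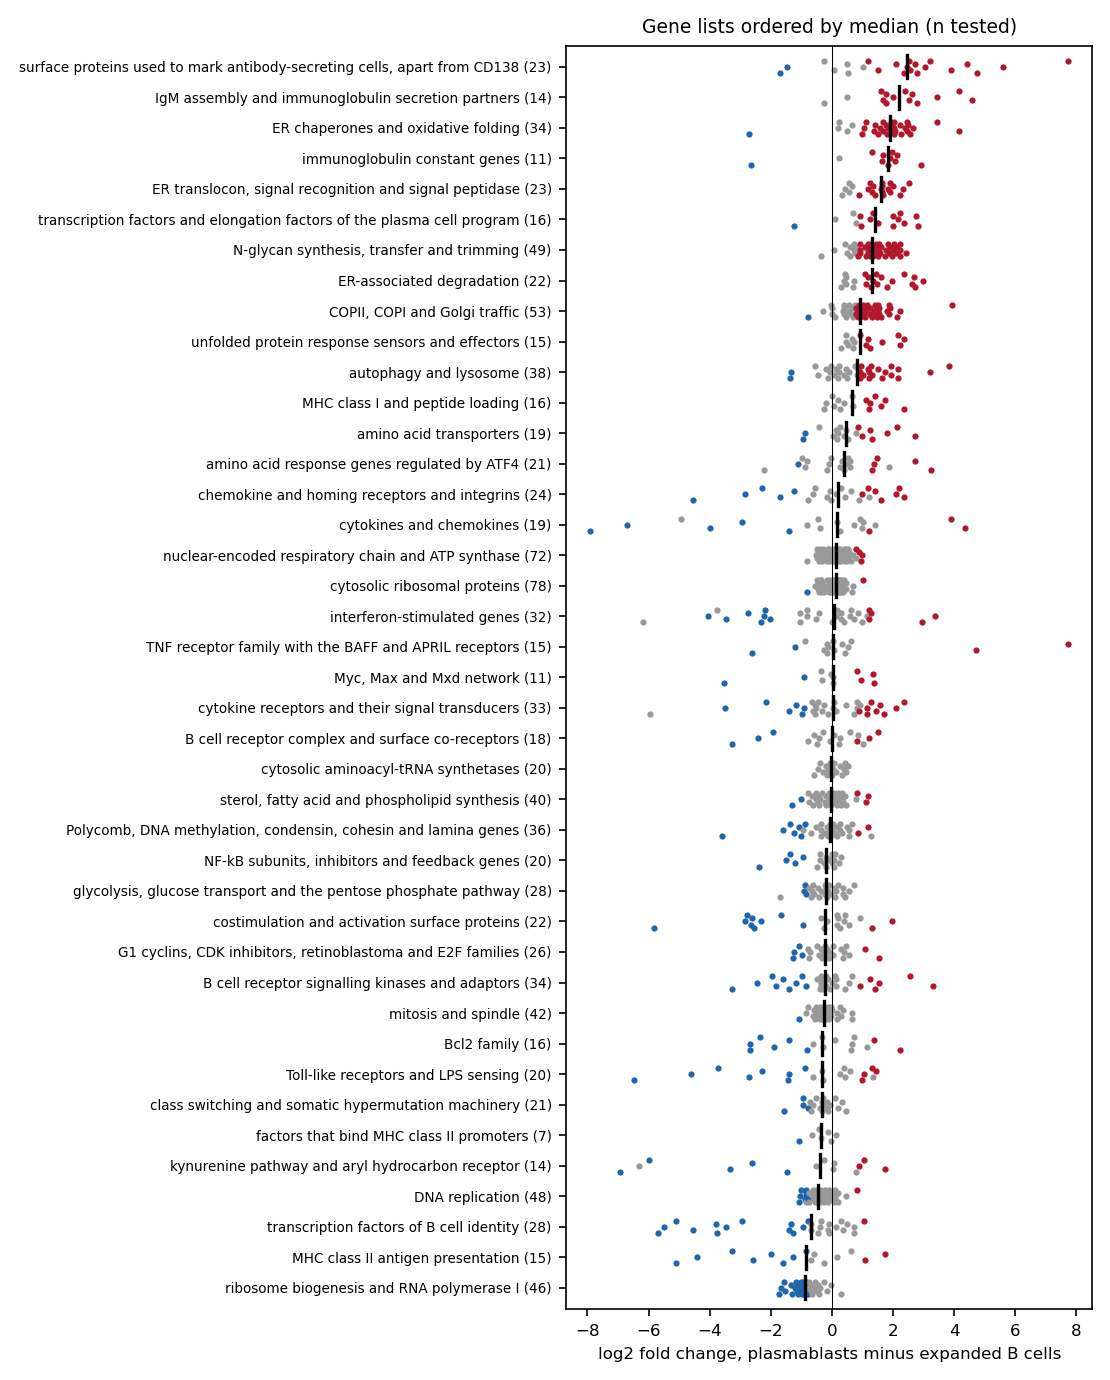
Log2 fold changes of the members of 41 gene lists (points, red if called higher, blue if called lower, grey if not called), with a bar at each list's median and the number of tested members in brackets. Surface proteins listed as markers of antibody-secreting cells lie at the top with a median of 2.46, followed by antibody assembly at 2.19, and ribosome biogenesis lies at the bottom with a median of -0.87.

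Transcription factors and elongation factors of the plasma cell program were higher in plasmablasts as a group. Of 16 members, 12 were called higher and 1 lower, with a median log2 change of 1.42. The largest rise belonged to Eaf2, a partner of the ELL elongation factors, which had 16 and 18.4 RPKM in expanded B cells and 122 and 122 RPKM in plasmablasts, or 7.09-fold. Gfi1, a zinc-finger repressor, had 1.22 and 1.36 RPKM in expanded B cells and 9.23 and 8.0 RPKM in plasmablasts. Xbp1, the regulator of the unfolded protein response that the secretory expansion depends on, was the most abundant of the group per length, with 426 and 486 RPKM in expanded B cells and 2231 and 2439 RPKM in plasmablasts, a change of 2.36 ± 0.29 (adjusted p = 2.62e-04). Bhlha15, which encodes the secretory-cell factor MIST1, went from 22.9 and 27.9 to 118 and 117 RPKM. None of these groups of values overlapped.

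The regulators at the head of the program had smaller changes. Prdm1 was at 44.6 and 48.4 against 105 and 117 RPKM, a change of 1.26 ± 0.21 (adjusted p = 0.00635), and it was not called with library size alone. Irf4 was at 147 and 163 against 242 and 290.2 RPKM, and its change of 0.78 ± 0.17 did not pass the test against 1.5-fold (adjusted p = 0.14), although the groups did not overlap. Ell2, the elongation factor that favours the secreted form of heavy-chain mRNA, went from 45.6 and 53.8 to 196 and 198 RPKM. Creb3l2, an ER-anchored bZIP factor, rose by 2.15 ± 0.19. Both Ikzf3, at 145 and 145 against 157 and 154 RPKM, and Atf4, at 82.5 and 90.5 against 146 and 131 RPKM, were not called. Zbtb20, a zinc-finger factor on the same list, was the exception that fell, from 2.12 and 1.73 to 0.889 and 0.729 RPKM. That call was lost without expanded replicate I and without either plasmablast replicate, at -1.10, -1.37 and -1.09.

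Nearly all factors of B-cell identity that were called were lower in plasmablasts. Of 28 members, 13 were called lower and 1 higher, and the median change was -0.69. Klf2, a regulator of quiescence and trafficking, had 63 and 53.5 RPKM in expanded B cells and 1.07 and 1.17 RPKM in plasmablasts, which is 51.8-fold lower. Spib, an Ets factor, had 118 and 119 RPKM in expanded B cells and 2.68 and 2.57 RPKM in plasmablasts, and Ciita, the coactivator of MHC class II genes, had 30.5 and 25.8 RPKM in expanded B cells and 0.90 and 0.743 RPKM in plasmablasts. Id3, which restrains E proteins, fell by 4.53 on the log2 scale, from 39.3 and 40.3 to 1.64 and 1.78 RPKM. Each of these had less than 5% of its expanded B-cell level left.

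Pax5 itself had 77.2 and 75.4 RPKM in expanded B cells and 7.54 and 6.42 RPKM in plasmablasts, a change of -3.45 ± 0.19 (adjusted p = 8.61e-08). Zeb2, Bcl11a and Hhex changed by -3.78, -3.75 and -2.95. A milder set held Irf8 (-1.40), Bach2 (-1.35), Ebf1 (-1.26), Runx3 (-0.94) and Tcf3 (-0.78), of which Tcf3 was no longer called without expanded replicate I or either plasmablast replicate (-0.76, -0.75 and -0.76). Irf8 still stood at 80.9 and 78.7 RPKM in plasmablasts, and Ebf1 at 11.3 and 12.1 RPKM. The remaining 14 members were not called. Among them Ets1 (44.4 and 44.6 against 42.5 and 38.6 RPKM) and Foxp1 (33.7 and 35.9 against 32.5 and 32.7 RPKM) had similar values. Ikzf1 (131 and 132 against 102 and 97.2 RPKM) was lower in both plasmablast libraries but did not pass the test against 1.5-fold. Pou2af1, the OCA-B coactivator of immunoglobulin promoters, was the lone rise, with 495 and 530.3 against 1039 and 1098 RPKM, and it was no longer called with library size alone.

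**Figure D3:**
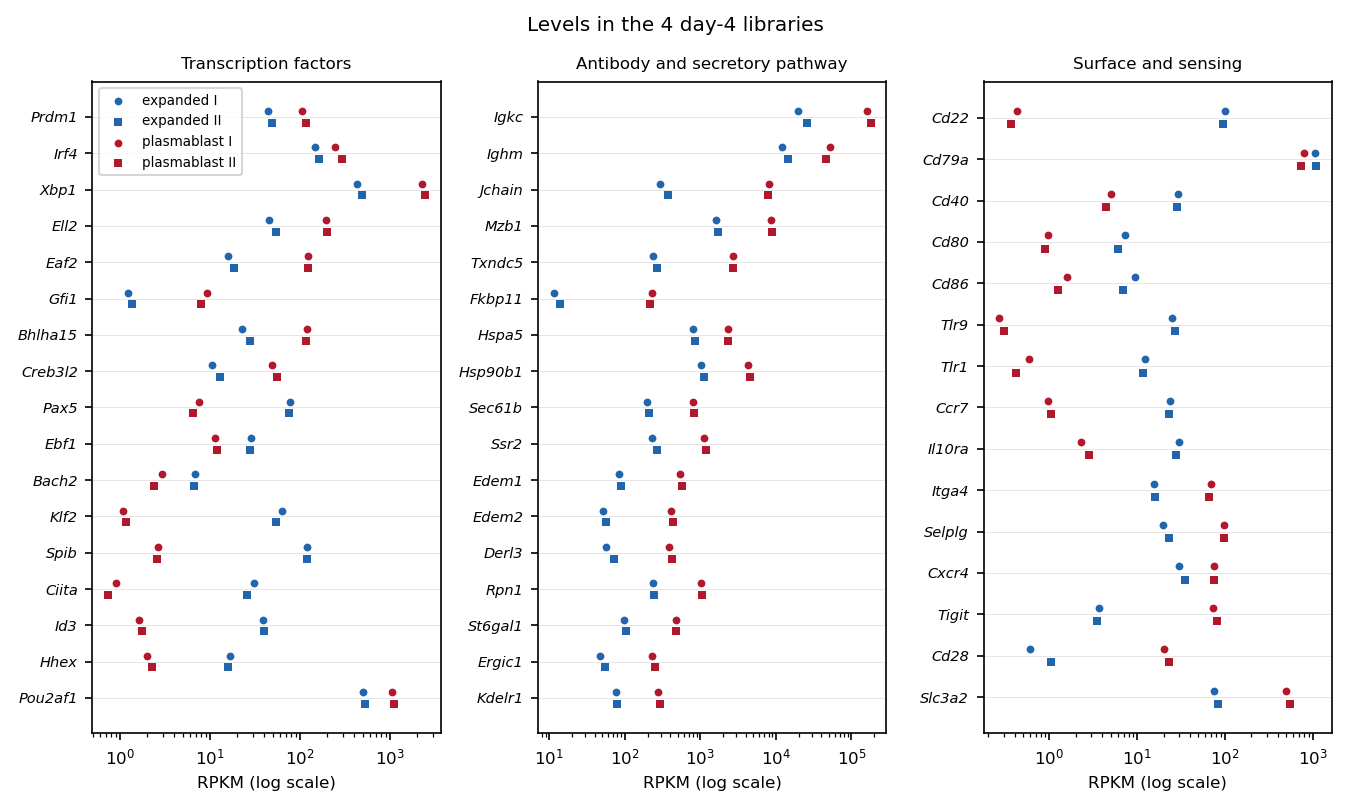
RPKM on a log axis in the 4 day-4 libraries (blue, expanded; red, plasmablast; circles, replicate I; squares, replicate II) for transcription factors, for antibody and secretory genes, and for surface and sensing genes. In each panel the replicates of a gene lie close together, and Klf2, Spib, Ciita, Cd22 and Tlr9 show the widest gaps towards expanded B cells.

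Most antibody constant genes were higher in plasmablasts. Of 11 immunoglobulin constant genes tested, 9 were higher and 1 lower, with a median of 1.82. Igkc, the kappa light chain, had 19646 and 25756 RPKM in expanded B cells and 162191 and 179069 RPKM in plasmablasts, or 7.52-fold. Ighm, the mu heavy chain, had 12152 and 14418 RPKM in expanded B cells and 52151 and 45993 RPKM in plasmablasts, or 3.69-fold. Their changes were 2.91 ± 0.15 and 1.89 ± 0.13. Of the switched isotypes Ighg3, the class that LPS favours, was the most abundant, with 1588 and 2203 against 3972 and 5402 RPKM. Its call was lost without expanded replicate I, at 1.09, without plasmablast replicate II, at 1.09, and with library size alone, at 0.97. Igha went from 7.21 and 6.64 to 21.4 and 39 RPKM and Ighg2c from 6.04 and 6.76 to 28 and 25.3 RPKM. The call of Ighg2c was lost without expanded replicate I, where its change was 1.97. Ighg1 was not called (81.5 and 142 against 109 and 156 RPKM). Ighd, the delta chain of mature B cells, fell from 19.2 and 23 to 2.65 and 3.99 RPKM. The lambda genes Iglc1, Iglc2 and Iglc3 rose by 1.82, 1.97 and 1.68, but they are near-identical copies between which reads may have been split.

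Partners of antibody assembly rose with the chains. Of 14 members, 12 were higher and none was lower, and the median was 2.19. Most of these members are also in other lists, so the counts of these lists are not independent. Fkbp11, Txndc5, Mzb1, Erp44, Ero1a and Ero1b are counted again among the ER chaperones below, and Sec11c in the translocon list. Derl3 and Selenos are counted again under ER-associated degradation, and Ell2 was counted above. After Jchain (4.60 ± 0.35), the largest rises were those of Fkbp11, an ER prolyl isomerase with 11.5 and 13.7 against 229 and 219 RPKM, and Txndc5, a protein disulfide isomerase with 235 and 266 against 2728 and 2679 RPKM. Mzb1, the ER protein that helps heavy chains assemble, reached 8644 and 8912 RPKM from 1607 and 1731 RPKM. Tent5c, a poly(A) polymerase that lengthens the tails of secreted-protein mRNAs, had 88 and 106 against 652 and 674 RPKM. Sec11c, a catalytic subunit of signal peptidase, had 413 and 425 against 2323 and 2455 RPKM, whereas its paralogue Sec11a had 85.5 and 85.3 against 108 and 109 RPKM and was not called. A like contrast held between Ero1b, at 61.9 and 65.7 against 200.3 and 208 RPKM, and Ero1a, at 17.7 and 18.5 against 24.6 and 26.6 RPKM, the pair of oxidases that regenerate protein disulfide isomerases, of which Ero1b was called. Where 1 of a pair of genes was called and the other was not, here and below, the difference between them was not tested.

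Genes of the ER rose together. For the translocon, signal recognition and signal peptidase, 18 of 23 members were higher and none was lower (median 1.6). For chaperones and oxidative folding, 29 of 34 were higher and 1 was lower (median 1.89). For ER-associated degradation (ERAD), which returns misfolded proteins to the cytosol, 15 of 22 were higher and none was lower (median 1.32). With library size alone these counts were 17, 27 and 14 higher, and each time a library was left out they stayed at 18, 29 and 15.

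At the membrane pore, Sec61b went from 195 and 209 to 787 and 820.5 RPKM and Sec61a1 from 197 and 216 to 636 and 647 RPKM. Ssr2, of the translocon-associated complex, rose by 2.23 ± 0.12, and Spcs1, a signal peptidase subunit, by 2.31 ± 0.11. The receptor of the signal recognition particle (Srpr, 90.8 and 100.5 against 278 and 299.9 RPKM, and Srprb, 48.2 and 54.8 against 186 and 196 RPKM) was called, while of the particle itself only Srp9 and Srp68 were, and Srp14, Srp19, Srp54a and Srp72 had changes from 0.43 to 0.65 that did not pass. Among chaperones, Hspa5 (BiP) had 796 and 838 RPKM in expanded B cells and 2349 and 2309 RPKM in plasmablasts, and Hsp90b1 (GRP94) had 1019 and 1122 RPKM in expanded B cells and 4254 and 4498 RPKM in plasmablasts. Sil1, the nucleotide exchange factor of BiP, went from 18.7 and 20.5 to 110.1 and 110.1 RPKM. Fkbp2 had 67 and 68 against 399.6 and 449 RPKM. In the calnexin cycle Calr rose by 1.67 ± 0.11 and Canx had 151 and 162 against 183 and 178 RPKM, a change of 0.21 ± 0.20. Cnpy3 was the single chaperone that fell, with 37 and 38.2 against 5.87 and 5.52 RPKM, and it is known for folding Toll-like receptors. In ERAD the lectins and mannosidase-like proteins had the largest changes. Edem2 had 50.9 and 56.1 against 411 and 433 RPKM, Edem1 had 82.7 and 88 against 532 and 566 RPKM and Erlec1 had 11.1 and 12.7 against 74 and 83.2 RPKM. Derl3 went from 57 and 71.9 to 379 and 415 RPKM. The ubiquitin ligase Syvn1 (HRD1) rose by 1.44 ± 0.10 and its adaptor Sel1l by 1.97 ± 0.11. The cytosolic end of the route, with the ATPase Vcp (91.5 and 88.5 against 115 and 126 RPKM) and its cofactors Ufd1, Nploc4 and Faf2, was not called.

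Of the unfolded protein response, 8 of 15 members were higher and none was lower (median 0.92), and 5 were with library size alone. Ern1, which encodes the sensor IRE1 alpha, had 6.55 and 6.62 against 21.9 and 19.5 RPKM, a change of 1.65 ± 0.16 (adjusted p = 2.99e-05). Atf6 had 40.2 and 40.6 against 76 and 76.5 RPKM and was called as well, though not with library size alone. Eif2ak3, the sensor PERK, had 29.4 and 27.3 against 46.4 and 43.5 RPKM and was not called (adjusted p = 0.207). Nor was Ddit3 (CHOP), at 8.1 and 9.48 against 12.4 and 11.6 RPKM. Dnajc3, an inhibitor of PERK, rose from 59.8 and 62.9 to 288 and 291 RPKM.

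Promoter sequences were read for these ER genes because XBP1 and ATF6 are known to act through the ER stress element, in which CCAAT and CCACG lie 9 bases apart. The promoter window ran from 250 bases before to 50 bases after each start in RefSeq on GRCm38.p6, and both strands were searched. The element was found in the windows of 37 of 27025 genes (0.137%), and of 8 of the 28 listed ER chaperone and folding genes that had a window (28.6%), 2 of 16 ERAD genes (12.5%) and 0 of 16 translocon genes. Every such match also contains CCAAT, which 41.1% of all genes hold. The next lines show 60 bases around the element, upstream of the start, for 8 of the 9 genes with the element that rose. Canx, the 1 gene of these 3 lists with the element that was not called, is shown as well. The distance differs, from 65 to 6 bases before the start for Syvn1 to 183 to 124 for Calr. Both 5-base parts of the element are in capitals (CGTGG and ATTGG where the element reads on the other strand).
Hspa5 (GRCm38.p6, chr2:34772004-34772063, plus strand): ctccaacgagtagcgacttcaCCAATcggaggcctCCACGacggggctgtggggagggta
Hsp90b1 (GRCm38.p6, chr10:86705513-86705572, minus strand): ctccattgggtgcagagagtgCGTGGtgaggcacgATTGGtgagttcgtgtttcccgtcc
Pdia6 (GRCm38.p6, chr12:17266470-17266529, plus strand): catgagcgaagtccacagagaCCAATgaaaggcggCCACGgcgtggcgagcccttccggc
Dnajc3 (GRCm38.p6, chr14:118937806-118937865, plus strand): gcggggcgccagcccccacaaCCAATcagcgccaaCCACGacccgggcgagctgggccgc
Creld2 (GRCm38.p6, chr15:88819499-88819558, plus strand): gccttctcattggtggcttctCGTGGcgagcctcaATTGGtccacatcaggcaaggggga
Calr (GRCm38.p6, chr8:84847055-84847114, minus strand): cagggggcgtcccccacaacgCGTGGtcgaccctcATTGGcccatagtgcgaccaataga
Syvn1 (GRCm38.p6, chr19:6046511-6046570, plus strand): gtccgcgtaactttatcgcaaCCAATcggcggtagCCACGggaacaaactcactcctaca
Derl3 (GRCm38.p6, chr10:75893221-75893280, plus strand): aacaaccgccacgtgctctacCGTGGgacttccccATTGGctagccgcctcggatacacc
Canx (GRCm38.p6, chr11:50325780-50325839, minus strand): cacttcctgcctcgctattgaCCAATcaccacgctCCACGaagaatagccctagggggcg
Of all 16 tested genes with the element in their window, 9 were called higher (56.2%) and 1 lower, and their median change was 1.47. All 9 are ER genes of the lists above, and no gene with the element outside those lists was called higher. In the lists as a whole, with or without the element, 85.3% of chaperone, 68.2% of ERAD and 78.3% of translocon genes were higher. The 1 riser not shown, Ero1b, rose by 1.68 ± 0.10. The others included Hnrnpa3, which was lower at 25.1 and 25 against 14.1 and 15.3 RPKM but not without expanded replicate I, expanded replicate II or plasmablast replicate I (-0.77, -0.78 and -0.68), and Alg12, which was not called. TGACGTG, a motif bound by XBP1 and ATF6, was in the windows of 2.22% of all genes. Of 329 tested genes that hold it, 84 were higher (25.5%) and 27 lower (8.21%), against 1375 higher (13.9%) and 1222 lower (12.3%) of the 9919 tested genes with a window. The listed genes with it were Hspa5, Txndc5, Txndc11, Fkbp11, Srpr, Ube2j1 and Vcp. All but Vcp rose, in lists where most members rose with or without the motif.

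Most genes of N-glycan synthesis rose. Of 49 members, 39 were higher and none was lower (median 1.32), and 32 were higher with library size alone. The oligosaccharyltransferase, the enzyme that attaches the glycan to the nascent chain, had several subunits among them. Krtcap2 had 205 and 208 against 1030.4 and 1157 RPKM, Ddost had 227 and 252 against 1104 and 1117 RPKM and Rpn1 had 237 and 246 against 1015 and 1061 RPKM. Both catalytic subunits were called, Stt3a at 1.52 ± 0.10 and Stt3b at 1.22 ± 0.082. Slc35b1, which brings ATP into the ER, went from 81.8 and 91.4 to 396 and 422 RPKM. Further along, St6gal1, the sialyltransferase of the Golgi, had 97.9 and 105 against 476 and 473 RPKM, while B4galt1, the galactosyltransferase just before it, had 49 and 56.3 against 41.5 and 40.9 RPKM and was not called.

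Genes of vesicle traffic between ER and Golgi were also mostly higher. Of 53 members, 35 were higher and 1 lower (median 0.93), and 24 were higher with library size alone. The largest rises among well-expressed members were those of Ergic1 (46.6 and 53.9 against 226 and 247 RPKM), Sec24d (20.4 and 26.5 against 100.2 and 103 RPKM), Arfgap3 (12.4 and 14.1 against 47.8 and 51.6 RPKM) and Sec24a (5.94 and 7.59 against 25.3 and 24.5 RPKM). Among the cargo adaptors of COPII, Sec24d and Sec24a were thus called, and Sec24b (15.5 and 16.9 against 12.3 and 14.2 RPKM) and Sec24c (47.4 and 52.8 against 62.8 and 68.4 RPKM) were not. The KDEL receptor Kdelr1, which returns ER residents, had 75.5 and 79.7 against 272 and 290.2 RPKM. For the COPI coat Cope rose by 1.79 ± 0.12, Copa and Copb1 were not called at 0.71 and 0.69, and Copg2 was the 1 call downwards at -0.79. That call was lost when any 1 of the 4 libraries was left out, with changes between -0.71 and -0.82.

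Amino acid transporters rose in part. Of 19 transporters, 7 were higher and 2 lower (median 0.46), and 1 was lower when any 1 of the 4 libraries was left out. Slc3a2, the CD98 heavy chain that carries several transporters to the membrane, had 75.9 and 82.9 RPKM in expanded B cells and 495 and 552 RPKM in plasmablasts, a change of 2.72 ± 0.13 (adjusted p = 1.72e-08). Its usual partner Slc7a5 had 106 and 119 against 144 and 151 RPKM and was not called, whereas another partner, Slc7a7, had 7.46 and 8.01 against 32.8 and 34.2 RPKM. Slc1a5, a glutamine carrier, had 53.4 and 58.5 against 138 and 139 RPKM. Of 21 genes of the ATF4 amino acid response, 5 were higher and 1 lower (median 0.39). The lower one, Ddit4, lost its call without any 1 of the 4 libraries, with changes of -0.99 to -1.19, with DESeq2 size factors, with the DESeq2 Wald test and with the antibody constant genes also removed. Pycr1, the last enzyme of proline synthesis, had 4.44 and 5.33 against 42.9 and 48.8 RPKM, and Atf5 had 11.9 and 13.7 against 34.3 and 36.8 RPKM. Asns (53 and 58.7 against 70.6 and 85.7 RPKM), Psat1 (144 and 149 against 129.6 and 142 RPKM) and Phgdh (118 and 119 against 149 and 149 RPKM), which make asparagine and serine, were not called. None of the 20 cytosolic aminoacyl-tRNA synthetases was called in either direction by glmTreat (median -0.02), and with the F-test, which has no fold threshold, 5 were higher and 4 lower.

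Of 38 autophagy and lysosome genes, 18 were called higher, 2 lower and 18 neither (median 0.83). Wipi1, which acts at the forming autophagosome, had 1.18 and 1.44 against 17.1 and 19.6 RPKM. Proteases of the lysosome rose, with Ctsl at 1.65 and 2.27 against 17.9 and 18.4 RPKM, Ctsb at 36.6 and 38.4 against 169 and 169 RPKM and Ctsd at 61.3 and 66.9 against 291 and 281 RPKM. The 2 that fell were Tfeb, a regulator of lysosomal genes, at 49 and 48.1 against 18.1 and 19.1 RPKM, and Grn, progranulin, at 146 and 149 against 54.1 and 63.9 RPKM. Ulk1, the kinase that starts autophagy, had 6.11 and 7.38 against 11.4 and 12.3 RPKM and was not called (adjusted p = 0.0729).

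Genes of antigen presentation by MHC class II were mostly lower or not called. Of 15 members, 8 were called lower and 2 higher (median -0.83). The coactivator Ciita fell most, as given above, and the classical chains had smaller changes. H2-Eb1 had 874 and 814 RPKM in expanded B cells and 356 and 337 RPKM in plasmablasts, a change of -1.29 ± 0.14 that was called, whereas H2-Aa at 1216 and 1173 against 768 and 711 RPKM and H2-Ab1 at 1120.5 and 1076 against 749 and 699 RPKM did not pass the test (adjusted p = 0.229 and 0.504). Cd74, the invariant chain, had 5498 and 5594 against 6184 and 6337 RPKM, with a change of 0.17 ± 0.11. Most peptide editors had larger falls. H2-Oa had 26.2 and 27.1 against 1.49 and 1.01 RPKM, and H2-DMa, H2-DMb1 and H2-DMb2 had changes of -1.62, -1.99 and -2.57, of which the last pair are close copies. H2-Ob, the partner of H2-Oa, was not called at 46.9 and 47.5 against 72.4 and 72.4 RPKM. Marchf1, the ligase that removes class II from the surface, fell from 1.99 and 1.74 to 0.167 and 0.212 RPKM. The proteases Lgmn (76.6 and 83.4 against 269 and 258 RPKM) and Ctss (229.9 and 217 against 471 and 465 RPKM), which also serve the lysosome, were the members that rose, and Ctss was no longer called with library size alone.

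Of the 7 genes for factors that bind class II promoters, 1 was called, Creb1, at 9.82 and 9.46 against 4.56 and 4.53 RPKM. Rfx5 had 8.48 and 7.86 against 5.3 and 5.1 RPKM, Rfxank 6.78 and 5.94 against 7.36 and 6.69 RPKM and Nfya 19.8 and 20.2 against 15.9 and 15.6 RPKM. These factors bind a set of boxes that CIITA reads, the last of them the Y box. CTGATTGG was found in the promoter windows of 4 of the 12 listed genes with a window (33.3%) and of 4.7% of all genes, and each match contains CCAAT on the other strand. The 3 windows below, 60 bases around the box and upstream of the start, belong to genes with unequal changes. The box is in capitals.
H2-Oa (GRCm38.p6, chr17:34092307-34092366, plus strand): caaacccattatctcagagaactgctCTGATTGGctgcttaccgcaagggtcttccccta
H2-Eb1 (GRCm38.p6, chr17:34305779-34305838, plus strand): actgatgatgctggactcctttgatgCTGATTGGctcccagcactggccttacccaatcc
H2-Aa (GRCm38.p6, chr17:34287841-34287900, minus strand): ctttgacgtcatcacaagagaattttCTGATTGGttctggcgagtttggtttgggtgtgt
The 4th gene with the box, H2-Eb2, had 12.5 and 13.2 against 11 and 10.6 RPKM. Of the 691 tested genes with it, 12.2% were higher and 10.1% lower, near the shares of all tested genes with a window.

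Of 16 genes of MHC class I presentation, 7 were higher, none was lower and 9 were not called (median 0.67). B2m, the light chain, had 1395 and 1395 against 4555 and 4650.5 RPKM, H2-K1 had 486 and 528 against 1552 and 1560.02 RPKM and H2-D1 500.2 and 513 against 1199 and 1190.2 RPKM. H2-Q7 had 21.4 and 23.9 against 114 and 118 RPKM, with the limit that class I genes are close copies. Tapbpl, a peptide editor, had 23.9 and 25.4 against 63.3 and 68.1 RPKM. The peptide pump genes Tap1 and Tap2 (0.26 and 0.67) and the immunoproteasome genes Psmb8, Psmb9 and Psmb10 (-0.20, 0.20 and 0.059) were not called, and nor was the class I coactivator Nlrc5, at 4.17 and 4.51 against 3.78 and 3.52 RPKM.

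Of 18 genes of the B-cell receptor complex and its co-receptors, 3 were lower and 3 higher, with a median of -0.0061 that was 0.026 with DESeq2 size factors and -0.35 with library size alone. Cd79a had 1069 and 1099 against 798 and 734 RPKM and Cd79b 776 and 791 against 717 and 775 RPKM, neither of them called. Ms4a1 (CD20) had 495 and 426 against 271 and 263 RPKM and did not pass. The clear losses were Fcer2a (CD23) at 23.4 and 17.8 against 2.23 and 2.06 RPKM, Siglecg at 30.1 and 28.1 against 5.13 and 5.79 RPKM and Cd72 at 76.7 and 76.9 against 20.7 and 19.7 RPKM, which like Cd22 restrain or tune the receptor. Cd52 rose, with 1619 and 1562 against 4423 and 4704 RPKM, and Cr2, a complement receptor, with 4.09 and 3.93 against 8.62 and 9.92 RPKM.

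Signalling genes changed in both directions. Of 34 kinases and adaptors, 9 were lower and 6 higher (median -0.23). Bank1, a scaffold, had 70.2 and 63.1 against 6.65 and 7.04 RPKM, Prkcb had 124 and 112 against 21.8 and 21 RPKM and Rasgrp1 had 15.9 and 13.9 against 3.7 and 3.93 RPKM. Against these falls stood Pik3cg, the gamma catalytic subunit of PI3-kinase, with 10.1 and 9.63 RPKM in expanded B cells and 98.8 and 96 RPKM in plasmablasts, a rise of 3.30 ± 0.14 (adjusted p = 3.86e-09). Fyn, which overlaps another gene model, rose from 14 and 14.5 to 41.7 and 41.3 RPKM and Tec from 12.4 and 10.8 to 33 and 28 RPKM. Vav3 rose from 0.896 and 1.17 to 6.5 and 5.61 RPKM while Vav2 fell from 36.1 and 32.8 to 16.5 and 14.1 and Vav1 was not called. Plcg2 (179 and 174 against 145 and 151 RPKM), Blnk (203 and 217 against 301 and 315 RPKM) and Blk (57.8 and 58.7 against 50.1 and 51.9 RPKM) were not called.

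Genes that sense microbes were more often lower than higher. Of 20 genes of Toll-like receptors and LPS sensing, 8 were lower and 4 higher (median -0.31). Tlr9, the receptor for unmethylated CpG DNA, had 24.9 and 27 RPKM in expanded B cells and 0.268 and 0.305 RPKM in plasmablasts, which is 89.7-fold lower (adjusted p = 1.89e-09). Tlr1 had 12.4 and 11.6 against 0.577 and 0.412 RPKM and Tlr6 1.96 and 1.65 against 0.407 and 0.339 RPKM, while Tlr2, their common partner, rose from 3.88 and 4.18 to 9.52 and 10.3 RPKM. Both of those that fell bind lipopeptides in pairs with TLR2. The LPS receptor Tlr4 had 3.1 and 2.86 against 3.8 and 3.97 RPKM and was not called. Its co-receptor Ly96 (MD-2) rose from 7.31 and 5.92 to 18.4 and 17.5 RPKM, and Ly86 (MD-1) fell from 189 and 173 to 65.3 and 67.8 RPKM while its partner Cd180 was not called. Downstream, Myd88 (31.5 and 31.7 against 25.6 and 24.9 RPKM) was not called. The 20 NF-kB genes gave 5 lower and none higher (median -0.19). Map3k14, the kinase NIK of the alternative pathway, had 4.7 and 4.19 against 0.792 and 0.913 RPKM, Traf1 had 38.5 and 38.5 against 13 and 14.3 RPKM and Nfkb1 had 90.5 and 89.9 against 33.6 and 35.4 RPKM. Rela was not called, at 37.7 and 42.5 against 41.6 and 41.6 RPKM.

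Costimulation genes were mostly lower among those called, with 9 of 22 members down and 2 up (median -0.22). Cd80 had 7.2 and 6.12 against 0.971 and 0.892 RPKM, Cd86 had 9.55 and 6.87 against 1.57 and 1.24 RPKM and Cd40 had 29.3 and 28.4 against 4.99 and 4.45 RPKM. Pdcd1lg2 (PD-L2) was low in both groups at 0.359 and 0.518 against 0.0744 and 0.0516 RPKM. Cd1d1, which presents lipids, rose from 2.78 and 3.09 to 11.9 and 11.1 RPKM. Icam1 (32.1 and 31.4 against 23.6 and 26.3 RPKM) and Cd48 (129.6 and 129.9 against 143 and 151 RPKM) were not called.

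Homing receptors changed in both directions, with 7 of 24 higher and 5 lower (median 0.21, and -0.13 with library size alone). Ccr7, which directs lymphocytes into lymph nodes, had 23.8 and 23.2 against 0.965 and 1.05 RPKM. Itgb7 fell from 18.2 and 17.7 to 2.36 and 2.65 RPKM, whereas its alpha partner Itga4 rose from 15.7 and 15.9 to 69 and 66.7 RPKM, and Itgb1, the other beta partner of Itga4, fell by 1.25. Selplg, the ligand of P-selectin, had 19.9 and 23.1 against 96.6 and 98.7 RPKM. Ccr10 had 3.26 and 5.36 against 18.7 and 25.7 RPKM and Ccr9 1.19 and 1.55 against 4.73 and 3.57 RPKM, receptors of antibody-secreting cells in skin and gut. Cxcr4, the receptor used to reach bone marrow, had 30.2 and 35.5 against 75 and 75.4 RPKM, and its call was lost without any 1 of the 4 libraries (changes of 1.08 to 1.31) and with library size alone. Cxcr5, the follicle receptor, had 96.2 and 92.3 against 63.6 and 58.3 RPKM and was not called.

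Surface proteins that mark antibody-secreting cells, apart from CD138, had the highest median of the 41 lists plotted, 2.46, with 16 of 23 higher and 2 lower. The members were listed because they are used to mark these cells, so that the choice of genes favours a high median. Cd28 had 0.597 and 1.03 against 20.3 and 23.1 RPKM, Tigit had 3.66 and 3.46 against 73.4 and 80.5 RPKM and Epcam had 2.03 and 3.35 against 25.3 and 24.2 RPKM. Ly6c2 had 1.25 and 3.0 against 30.5 and 30.9 RPKM, although reads may be split between it and its near copy Ly6c1. Tnfrsf17 (BCMA), a receptor for APRIL, had 0 and 2 counts against 144 and 199, at least 60.5-fold higher in plasmablasts when expanded B cells are set to the floor of 3 counts per library. The other receptors of that family for BAFF and APRIL, Tnfrsf13b (TACI, 323 and 317 against 458 and 457 RPKM) and Tnfrsf13c (BAFF receptor, 230.1 and 238 against 256 and 235 RPKM), were not called, and over the 15 TNF receptors 2 were higher and 2 lower (1 without plasmablast replicate II). Cd38 fell from 17.7 and 20.2 to 7.07 and 6.67 RPKM, and Ackr3, at 2.4 and 2.01 against 0.739 and 0.615 RPKM, lost its call without expanded replicate I and without either plasmablast replicate, with changes of -1.58, -1.81 and -1.55.

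Cytokine receptors split, with 9 of 33 higher and 6 lower (median 0.03). Il10ra had 30.2 and 28 against 2.3 and 2.8 RPKM while Il10rb had 17 and 17.9 against 43 and 41.2 RPKM. Il4ra fell from 22.7 and 22.6 to 8.71 and 8.46 RPKM, and Il27ra from 4.76 and 4.14 to 1.12 and 0.902 RPKM. Il6st (gp130), the shared subunit of the IL-6 family, had 9.68 and 9.82 against 52.5 and 47.4 RPKM, whereas Il6ra had 9.59 and 10.3 against 8.35 and 8.41 RPKM and was not called. Il5ra rose from 7.23 and 7.68 to 18.8 and 21.6 RPKM and Ifnar2 from 10.7 and 9.35 to 28.1 and 31.4 RPKM. Of 19 cytokines, 5 were lower and 3 higher, and 5 were higher without plasmablast replicate I. Il6 had 243 and 162 counts against 0 and 1, and Lta had 96 and 79 counts against 0 and 1, so that both were at the floor in plasmablasts and at least 61.6-fold and 26.9-fold lower there. Tnf had 167 and 130 counts against 4 and 9. Ccl22 fell from 7.99 and 9.58 to 0.935 and 1.3 RPKM. Ebi3 rose from 27.9 and 27.6 to 62.2 and 66.7 RPKM, and Il10 did not pass, with 11.1 and 12.1 against 13.2 and 30.2 RPKM and plasmablast replicates far apart.

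Mitotic genes gave few calls, and DNA replication genes were more often called lower than higher. Of 42 genes of mitosis and the spindle, 1 was lower, Kif23 at 32.3 and 32.5 against 15.2 and 15.6 RPKM, and none was higher (median -0.26). That call was lost without plasmablast replicate I, at -1.03. Mki67, the marker of cycling cells, was not called at 0.28 ± 0.14, and nor was Top2a (184 and 181 against 154 and 152 RPKM) or Ccnb1 (43.6 and 42.1 against 36.6 and 35 RPKM). Of 48 DNA replication genes, 8 were lower (16.7%, against 12.2% of all genes) and 1 higher (median -0.45). With the F-test, which has no fold threshold, 31 of them were lower and 2 higher, against 3787 and 3469 of all 12750 genes. Of the mitotic genes, 11 were lower and 2 higher with it. Orc6, of the origin recognition complex, had 44.7 and 40.5 against 21.1 and 19.8 RPKM and Uhrf1, which copies DNA methylation, 88.6 and 91.8 against 45.2 and 43.7 RPKM, and the replicative helicase subunits Mcm2 to Mcm7 ranged from -0.77 to 0.11 with none called. The count of lower replication genes was 4 without plasmablast replicate I, 5 without plasmablast replicate II, 6 or 7 without an expanded replicate, and 22 with library size alone, where 8 mitotic genes were lower as well. The 1 higher replication gene lost its call without either expanded library and without plasmablast replicate I.

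G1 control genes gave 4 lower and 2 higher of 26. Ccnd3 had 59.1 and 52.9 against 22.6 and 24 RPKM and Ccnd2 had 155 and 160.2 against 80.2 and 80.9 RPKM, the D cyclins that B cells use. Cdkn2c (p18), an inhibitor of CDK4 and CDK6 known in plasma cell differentiation, rose from 16.1 and 16.1 to 37.5 and 30.8 RPKM, a call lost with library size alone. Another CDK inhibitor gene, Cdkn2a, was called lower, at 44.7 and 39.2 against 21.2 and 18.8 RPKM. E2f5 was lower as well, at 6.67 and 5.56 against 2.78 and 2.46 RPKM. Cdkn1b (p27) had 12.1 and 13 against 16.5 and 15.5 RPKM and was not called. Myc was not called at 37.4 and 39.8 against 27 and 35 RPKM. Its partner Max fell from 45 and 43.4 to 23.1 and 23.9 RPKM, while the antagonists Mxd4 and Mxi1 rose, Mxd4 from 43.4 and 48.3 to 116 and 117 RPKM and Mxi1 from 2.49 and 2.8 to 6.49 and 7.18 RPKM.

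Ribosome biogenesis had the lowest median of the 41 lists plotted, -0.87, with 31 of 46 members lower and none higher. Npm1, a nucleolar chaperone, had 405 and 394 against 129 and 125 RPKM, a change of -1.65 ± 0.092 (adjusted p = 1.97e-07). Gar1, of the H/ACA particles, had 31.6 and 32 against 8.46 and 10.8 RPKM, Rrp1b 24.6 and 23.2 against 7.25 and 8.73 RPKM and Rrp9 59 and 57.1 against 20.5 and 19.5 RPKM. Ncl and Fbl fell by 1.30 and 1.22 on the log2 scale. From 22 to 28 members were lower as single libraries were left out, and 40 members were lower with library size alone. The 78 ribosomal protein genes gave 1 call in each direction and a median of 0.12. The lower call was lost without expanded replicate I and without either plasmablast library, and 2 were higher without plasmablast replicate I. For these genes the sign of the median depended on scaling and was -0.22 with library size alone, and many have pseudogene copies.

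Genes of energy metabolism gave few calls. Of 72 nuclear genes of the respiratory chain and ATP synthase, 4 were higher and none lower (median 0.12), and with library size alone none was higher and 7 were lower (median -0.22). Uqcrq had 181 and 192 against 359 and 382 RPKM, Sdhc 79.2 and 82.2 against 154 and 160.5 RPKM and Ndufa2 159 and 161 against 289.8 and 307 RPKM, all 3 no longer called with that scaling. Of 28 genes of glycolysis, glucose transport and the pentose phosphate pathway, 3 were lower and none higher. Pfkfb3 had 9.52 and 9.08 against 4.84 and 4.98 RPKM and Pgd had 107 and 102 against 57.2 and 57.5 RPKM. Ldha (710.2 and 715 against 445 and 454 RPKM) and Slc2a1 (15.1 and 14.6 against 16.9 and 15.2 RPKM) were not called. Lipid synthesis gave 3 higher and 2 lower of 40. Insig1 rose from 37.7 and 44.6 to 99.7 and 86.7 RPKM, and Chpt1 from 3.17 and 2.82 to 5.65 and 4.98 RPKM. Acaca, the first step of fatty acid synthesis, had 8.27 and 7.7 against 3.3 and 3.19 RPKM and Scd1 had 214 and 204 against 105 and 103 RPKM, while Pcyt1a, which makes the phosphatidylcholine of membranes, had 8.47 and 9.59 against 19.5 and 19.6 RPKM and was not called with library size alone. Fasn was not called, at 55.7 and 56.6 against 48.6 and 48.1 RPKM.

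Survival genes of the Bcl2 family changed in both directions, with 6 of 16 lower and 2 higher (median -0.31). Bcl2 had 9.67 and 8.45 against 2.38 and 2.54 RPKM. The A1 genes Bcl2a1b and Bcl2a1d fell by 2.34 and 2.69, with the limit that they are near-identical copies. Bcl2l1 (Bcl-xL) rose from 37.1 and 48.3 to 99.9 and 119 RPKM, and so did Bcl2l11 (BIM), which promotes cell death, from 18.7 and 19.3 to 92.2 and 83.8 RPKM. Mcl1, on which plasma cells depend, had 199 and 200.4 against 302 and 316 RPKM and did not pass (adjusted p = 0.383). Bid, which promotes death as well, fell by 1.40 on the log2 scale.

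Of 21 listed genes of class switching and hypermutation, 4 were lower and none higher (median -0.32). Apex1, an endonuclease of base excision repair, had 47.9 and 40.4 against 14.7 and 14.8 RPKM, Batf had 132 and 135 against 70.2 and 69.1 RPKM and Ung, the uracil glycosylase, had 26.9 and 27.7 against 14.5 and 14.1 RPKM. In the kynurenine pathway, besides Kynu, Haao had 19.3 and 16.6 against 0.104 and 0.432 RPKM and Kmo had 30.8 and 28.2 against 3.09 and 2.74 RPKM, the enzymes around Kynu on the route to NAD. Ahr, the aryl hydrocarbon receptor, which binds some of these metabolites, rose from 2.05 and 2.16 to 7.58 and 6.45 RPKM. Over the list 5 of 14 were lower and 3 higher.

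Chromatin genes gave 7 lower and 2 higher of 36 (median -0.05), with 1 higher without expanded replicate I, without plasmablast replicate II or with library size alone. Dnmt3a had 6.2 and 5.72 against 2.1 and 1.84 RPKM, Tet3 3.96 and 3.98 against 1.73 and 1.63 RPKM, and Lmnb1, the B-type lamin, 175 and 169 against 67.5 and 66.7 RPKM. Ezh2, the Polycomb methyltransferase, fell from 124 and 121 to 60.1 and 61.8 RPKM, while its partner Suz12 (64.3 and 63.3 against 60.9 and 61.5 RPKM) was not called. Satb1 rose from 3.19 and 3.42 to 8.2 and 6.9 RPKM. The chromatin loop factors Ctcf and Rad21 did not pass, with Ctcf at 70.0 and 69.8 against 65 and 71.1 RPKM and Rad21 at 100.2 and 106 against 109.7 and 112 RPKM.

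Interferon-stimulated genes went both ways, with 7 of 32 lower and 5 higher (median 0.06). Irf7 had 4.98 and 5.96 against 53.9 and 57.8 RPKM and Isg20 28.4 and 35.1 against 241 and 246 RPKM. Gbp2 fell from 39.4 and 27.5 to 2.0 and 2.03 RPKM and Ifit1 from 5.99 and 5.42 to 0.899 and 1.35 RPKM. Bst2 (tetherin) rose from 79.1 and 74.8 to 184 and 194 RPKM. Isg15 did not pass, at 39.8 and 43.1 against 75.8 and 75.6 RPKM.

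Outside the lists, the 10 DEs with the largest rises and the 10 with the largest falls at a mean log2 CPM of at least 5 were taken. Hid1, which acts in the trans-Golgi network and dense-core granules, led the rises at 6.1 and 10.2 against 92.3 and 99.6 RPKM. Trp53inp1, a p53-induced autophagy factor, had 17.8 and 18.8 against 206 and 186 RPKM, and Spint2, an inhibitor of serine proteases, had 8.33 and 9.46 against 91.4 and 86.2 RPKM. Ccpg1, a receptor for autophagy of the ER, had 8.99 and 10.0 against 73.9 and 82.3 RPKM, and Ckap4, a protein of ER sheets, had 48.4 and 54.8 against 385 and 401 RPKM. Selenop, a secreted selenium carrier, had 16 and 20.1 against 156 and 166 RPKM and Slc44a1, a choline transporter, 5.27 and 7.75 against 55 and 53.8 RPKM. Fam214a, Abca1 and Tns3 completed the set with changes of 3.16, 3.11 and 3.10. Of these, Abca1 was low in both groups, at 0.0829 and 0.146 against 1.04 and 0.921 RPKM. It had 29.8 and 21.7 RPKM in naive B cells, which count towards the mean over the 12 libraries.

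Among the falls, Mpeg1 (perforin-2), a pore-forming protein of phagocytes and B cells, had 24.3 and 24.6 against 0.205 and 0.277 RPKM, with at most 34 counts in a plasmablast library. Ceacam1, an inhibitory adhesion receptor, had 14.4 and 15.1 against 0.227 and 0.236 RPKM, and Sorl1, a sorting receptor, 8.03 and 8.14 against 0.287 and 0.193 RPKM. B3gnt5, which starts lacto-series glycolipids, had 3.19 and 3.14 against 0.0695 and 0.138 RPKM, and Gypc, a membrane skeleton protein, 32.5 and 30.3 against 1.32 and 1.08 RPKM. Evl, of the actin cytoskeleton, had 20.2 and 19.5 against 0.848 and 0.797 RPKM. Zbtb32, a zinc-finger factor that restrains memory B-cell recall, was abundant in expanded B cells at 155 and 148 RPKM and stood at 6.99 and 8.07 RPKM in plasmablasts. Tmem229b, Samd9l and Cyb561a3 changed by -4.04, -3.93 and -3.73. Fold changes of these 20 genes ran from -6.65 to 3.57, and within each gene the groups did not overlap. Reads were counted without a stated use of strand, and several genes named here overlap another annotated gene with which reads could be shared, among them Eaf2, Ciita, Txndc5, Spcs1, Erlec1, Itga4, Tigit, Ctsb, Bcl2l11 and B2m.

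The other 10 libraries place these day-4 levels. Of the 1776 DEs higher in plasmablasts, 75.1% were above all 10 other libraries in both plasmablast libraries, and of the 1553 lower, 54.0% were below all 10. Called members of the ER lists were beyond the earlier stages without exception, 18 of 18 in the translocon, 29 of 29 chaperones and 15 of 15 in ERAD, and so were all 12 called factors of the plasma cell program that rose. All 13 called losses among B-cell identity factors were below every naive and activated library. Spib, for example, had 415 and 429 RPKM in naive B cells and 243 and 176 RPKM at 33 h before it reached 2.68 and 2.57 RPKM in plasmablasts. Tlr9 declined from 142 and 141 RPKM in naive cells to 24.9 and 27 RPKM in expanded B cells.

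The DNA replication list gave another count, while ribosome biogenesis was near the share of all lower genes. None of the 8 lower DNA replication genes was below all 10 libraries. Of 31 lower ribosome biogenesis genes 18 were (58.1%, against 54.0% of all lower genes). Npm1 in naive B cells had 159 and 171 RPKM, above both plasmablast libraries and below both libraries of expanded B cells. Itga4, which rose, had 38.1 and 37 RPKM in naive B cells, between its levels in expanded B cells and plasmablasts, and Irf7, with 22.1 and 17.1 RPKM, did too. Xbp1 was already at 426 and 486 RPKM in expanded B cells against 109 and 168 RPKM at 33 h, and Jchain at 289.6 and 372 against 7.22 and 9.43 RPKM.

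**Figure D4:**
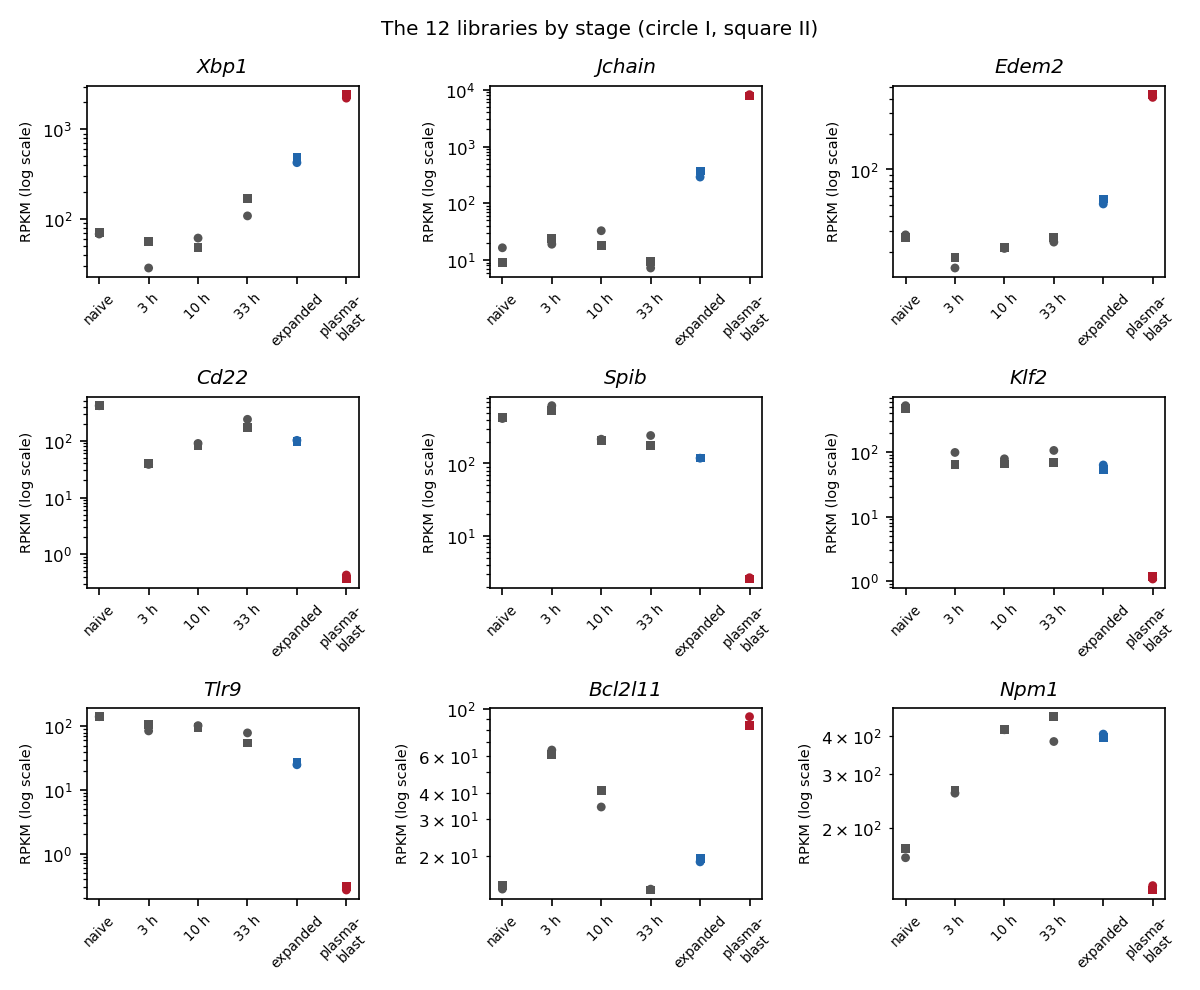
RPKM on a log axis of 9 genes in the 12 libraries by stage (circles, replicate I; squares, replicate II; grey, before day 4; blue, expanded; red, plasmablast), each panel with its own scale. Xbp1, Jchain and Edem2 are highest, and Cd22, Spib, Klf2 and Tlr9 lowest, in the 2 plasmablast libraries, while Bcl2l11 also has 63.9 and 61 RPKM at 3 h.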

How the data were processed

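RNA-seq was done on 12 libraries of mouse B cells, 2 in each of 6 groups. Per the study's methods, the authors sequenced TruSeq libraries as paired ends on a NextSeq 500, used Rsubread for alignment to mm10, and made gene counts by featureCounts with its inbuilt Entrez annotation. The processing notes also name CASAVA 1.8.2. The deposited values are raw counts, with no normalization, and strand use in counting is not given in the sources used here. Total counts were 32263933 to 41861977 in the 4 day-4 libraries and 23026619 to 60585587 in all 12, and a floor of 3 counts per library was set, which covers counting error only.

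Of 27179 gene IDs, 25275 matched the RefSeq table of GRCm38.p6, which is mm10. Genes without annotation (1904 IDs, 1.76% to 2.08% of counts in the 4 libraries), rRNA, mitochondrial, X and Y genes and immunoglobulin variable segments were removed, 23700 genes stayed, and filterByExpr left 12750. The test was edgeR 4.0.16 (R 4.3.3, limma 3.58.1) glmTreat against 1.5-fold on a robust quasi-likelihood fit of all 12 libraries in a one-way layout with TMM scaling, with Benjamini-Hochberg adjustment over 12750 genes and a threshold of 0.05. All adjusted p-values in the text are from it. DESeq2 1.42.0 was an alternative. The fit was tested on simulated data. With 2 libraries against 2, a two-sided exact permutation test cannot go below p = 0.333, and no such test was made. Since the number of mice is not given, p-values measure the spread between these libraries.

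The members and the 45 gene lists were chosen with earlier results of these data known. Genes selected for naming were the 4 sort and fate markers, up to 4 called members per list and direction with a mean log2 CPM of at least 2, and 10 genes per direction outside the lists, 215 in all. Some of these 215 are not described above. The other 138 genes named were chosen after their values were seen, many of them regulators, receptors or enzymes that a list is about. Promoters were read from RefSeq, and 9919 of the 12750 tested genes had one. A total of 5 genes are not reported here. Protein sequences were not used here.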

Additional observations from a re-analysis of the deposited data

How the results depend on the processing

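Against 1776 higher and 1553 lower genes, the counts were 1181 and 2953 with library size alone, 1340 and 992 with the DESeq2 Wald test against 1.5-fold, and 3469 and 3787 with the F-test with no fold threshold. Of the other alternatives that kept the 4 libraries, none moved a count by over 1.5 times. Leaving out 1 library at a time gave 1388 to 1584 higher and 1123 to 1341 lower genes. With the replicate number as a replicate block the counts were 1754 and 1551 in all 12 libraries, and 2172 and 1810 in the 4 alone. Replicate numbers were not used to pair the samples, since the labels name no shared mouse or day. The correlation of replicate I minus II between the groups was 0.084. With 1 such difference per group, it cannot settle whether samples of the same number shared a mouse or culture. Over 353 named genes and the alternatives, 5701 of 5977 values kept direction and side of the threshold, 153 lost a call, 102 gained one and 21 changed sign. Counts of list members that moved by over 1.5 times with library size alone, beside those in the report, were 6 lower for co-receptors, 3 lower for class II promoter factors, 8 lower for homing, 2 higher for Toll-like receptors, 11 lower for cytokine receptors, 4 lower for the ATF4 response, 1 lower for tRNA synthetases, 4 higher for amino acid transporters, 0 higher for DNA replication, 1 higher and 7 lower for G1 control, 0 higher and 3 lower for ribosomal proteins, 11 lower for glycolysis, 1 higher and 7 lower for lipid synthesis, 8 lower for class switching and 1 higher for the kynurenine pathway. All sign changes were in genes that were not called. With library size alone, they were Canx (-0.13), Cd48 (-0.16), Cd74 (-0.16), Ighg1 (-0.10), Ikzf3 (-0.24), Mcm6 (-0.23), Mki67 (-0.063), Phgdh (-0.011), Psmb10 (-0.28), Psmb9 (-0.14), Rad21 (-0.23), Rela (-0.29), Rfxank (-0.20), Slc2a1 (-0.23), Tap1 (-0.083), Tnfrsf13c (-0.27). As each library was left out, the range was from -0.10 to 0.011 for Cd79b, from -0.078 to 0.051 for Ctcf, from -0.11 to 0.69 for Ighg1 and from -0.035 to 0.13 for Rela. With 2 libraries a side, a library left out leaves a lone sample that is assumed to vary like the other groups. Genes at the floor of 3 counts, 53 of those higher and 171 of those lower, have fitted fold changes that depend on the prior count. The cause of these differences was not tested.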

Other observations

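Genes left out of the tested set were examined in the fit that kept them. Of 445 genes on X and Y, 69 were higher in plasmablasts and 46 lower, with a median log2 change of 0, against 2109 higher and 1616 lower of all 13854 genes in that fit. The X-linked secretory genes Ssr4, of the translocon-associated complex, and Magt1, of the oligosaccharyltransferase, had changes of 1.75 ± 0.095 and 1.44 ± 0.094 (SE). Ssr4 had 151 and 162 RPKM in expanded B cells and 516 and 537 RPKM in plasmablasts. Il2rg, the common gamma chain of cytokine receptors, had 111 and 115 RPKM against 339 and 358 RPKM. Btk, the kinase downstream of the B-cell receptor, had 50.7 and 48.8 RPKM against 48.5 and 50.2 RPKM, and Tlr7 had 11.29 and 11.02 RPKM against 9.69 and 10.99 RPKM, and neither was called. Was, a regulator of actin, was lower, with 75.7 and 73.7 RPKM against 39.1 and 38.4 RPKM. These X-linked genes were picked after their values were seen.

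Of 232 immunoglobulin variable segments, 225 were higher and none was lower, with a median of 2.30. They took 1.13% to 1.284% of counts in expanded B cells and 5.12% to 5.19% in plasmablasts. None of the 13 mitochondrial genes was called, and their median change with TMM scaling was 0.44. Their share of all counts was similar, 5.24% to 5.46% in expanded B cells and 5.31% to 5.48% in plasmablasts, so that this median depends on the scaling.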
